A study of Mus musculus with 6 samples.

Results

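Sox genes encode transcription factors that bind DNA through an HMG box, the domain they share with the testis-determining factor SRY. The 10 Sox genes described here belong to 5 subgroups that neural progenitors and young neurons are known to use: Sox1, Sox2 and Sox3 (SoxB1), Sox21 (SoxB2), Sox4, Sox11 and Sox12 (SoxC), Sox5 (SoxD), and Sox8 and Sox9 (SoxE). They were taken by symbol from a table of 55416 genes, and all 10 were present, once each, and passed the filter on low counts that left 23628 tested genes. The table holds total RNA sequencing of ganglionic eminences, the ventral swellings of the embryonic forebrain that give rise to striatal neurons and to cortical interneurons. The 3 double knockout (DKO) libraries came from mouse embryos at E13.5 (E for embryonic day) without Dlx1 and Dlx2, which encode homeodomain factors of differentiating ventral forebrain cells, and the 3 wild-type (WT) libraries came from littermates at the same age. The labels name no strain, sex, driver or conditional allele, and do not say whether a library pools embryos or whether replicates are separate embryos, so p-values measure the spread between these libraries. The ganglionic eminence markers Gad1, Gad2, Gsx2, Nkx2-1, Lhx6 and Meis2 were each detected, at mean WT levels from 23.5 CPM (read counts scaled to library size with TMM factors) for Gsx2 to 564.9 CPM for Meis2.

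SoxB1 factors hold neural progenitors in an undifferentiated state, and Sox21 is known to oppose them at shared sites. SoxC factors are switched on as cells leave the progenitor state and activate pan-neuronal genes. Sox5 acts in postmitotic neurons and precursors and has no activation domain of its own, and the SoxE factors Sox8 and Sox9 serve radial glia and the start of glial fates.

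The opening of the HMG box shows how alike the members are, which also bears on whether reads can be assigned to the right gene. The 60 bases of coding sequence that start at this point are given from GENCODE M21 transcripts (mouse build GRCm38), 5′ to 3′, with capitals where a base is not that of Sox2.
Sox2: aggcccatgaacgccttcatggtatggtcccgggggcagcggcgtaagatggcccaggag
Sox1: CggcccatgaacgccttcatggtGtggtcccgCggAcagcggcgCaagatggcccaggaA
Sox3: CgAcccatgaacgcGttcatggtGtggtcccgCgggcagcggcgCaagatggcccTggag
Sox21: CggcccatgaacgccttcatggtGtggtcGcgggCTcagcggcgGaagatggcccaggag
Sox4: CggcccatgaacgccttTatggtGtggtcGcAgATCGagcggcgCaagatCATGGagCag
Sox11: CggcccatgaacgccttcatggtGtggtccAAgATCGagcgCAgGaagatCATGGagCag
Sox12: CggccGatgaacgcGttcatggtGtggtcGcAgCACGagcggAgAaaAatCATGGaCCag
Sox8: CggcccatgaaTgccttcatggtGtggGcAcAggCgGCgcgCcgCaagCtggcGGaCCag
Sox9: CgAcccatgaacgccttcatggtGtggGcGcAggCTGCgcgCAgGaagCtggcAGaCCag
Sox5: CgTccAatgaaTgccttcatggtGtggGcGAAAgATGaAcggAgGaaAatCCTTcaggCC
Over these bases Sox1 and Sox21 each differed from Sox2 at 6 positions and Sox3 at 7, whereas the SoxC members differed at 16 to 20, the SoxE members at 16 and 18, and Sox5 at 23. The longest exact stretch shared by any pair of the 10 was 48 bases, between Sox4 and Sox11, followed by 45 bases between Sox1 and Sox3. No member shared a 50-base word with another Sox gene in that annotation, on either strand. Read length is not given in the sources used here.

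The targeted genes followed the labels. Dlx2 was at 295.7 ± 16.1 CPM (SD, n = 3) in WT and 8.68 ± 1.99 CPM (SD, n = 3) in DKO libraries, and Dlx1 at 438.9 ± 6.12 and 81.6 ± 10.8 CPM. Of the ganglionic eminence markers, Gad1, Gad2, Lhx6 and Meis2 fell in the DKO, with log2 fold changes of -1.47, -1.38, -0.83 and -0.45, and Gsx2 and Nkx2-1 rose, with 0.64 and 0.59. The part of these cell populations in the Sox values was not tested. The calls of Lhx6, Gsx2 and Nkx2-1 were lost with the Y-linked covariate (edgeR adjusted p of 0.0690, 0.0688 and 0.108) and without a single library: for Lhx6 any but DKO replicate 3 (0.0534 to 0.118), for Gsx2 WT replicate 1 or 2 (0.0940 and 0.0969), and for Nkx2-1 any WT replicate or DKO replicate 1 (0.0640 to 0.147). Meis2 was lost without DKO replicate 2, at an edgeR adjusted p of 0.0502. Library totals ranged from 56618090 to 70114173 counts. Summed levels of endothelial, microglial, meningeal and blood marker lists overlapped between the genotypes, at 103.2 to 121.8 and 109.2 to 127.7 CPM, 25.0 to 31.4 and 25.0 to 36.0 CPM, 24.7 to 39.2 and 27.9 to 28.9 CPM, and 90.9 to 107.5 and 82.7 to 116.4 CPM, in WT and DKO libraries respectively. The 5 cortical excitatory markers Neurod2, Neurod6, Tbr1, Eomes and Slc17a7 did not overlap, with sums of 808.2 to 826.5 CPM in WT and 617.3 to 641.5 CPM in DKO libraries. Of these 5, 1 was called lower, 0 higher and 4 were not called, against 1.34% of all tested genes called in each direction. DKO replicate 3 had the highest sum of 12 dividing cell genes, 4040 CPM, against 2989 to 3340 CPM in the other 5 libraries, and the lowest sum of 16 early neuronal genes, 7691 CPM against 8611 to 9896 CPM.

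Compared per exon length, the SoxC genes Sox11 and Sox4 stood highest in every library. As RPKM, which is CPM divided by exon length in kilobases (GENCODE M21 lengths), the WT levels were 577.0 ± 8.22 for Sox11, 312.6 ± 11.8 for Sox4, 109.5 ± 3.06 for Sox2, 66.3 ± 0.410 for Sox12, 53.7 ± 1.08 for Sox1 and 45.7 ± 4.75 for Sox9 (SD, n = 3), and neighbours in this order did not overlap. Sox3 followed at 16.1 ± 0.389 RPKM. Sox5, Sox8 and Sox21 were lowest, at 14.4 ± 0.689, 13.7 ± 0.740 and 13.2 ± 1.13 RPKM, and each of these overlapped the next. The length of Sox5, 14376 bases in 25 exon blocks, sums all its annotated isoforms, which lowers its RPKM; Sox11 is a single exon block of 8311 bases. Even Sox21 was above 81.7% of the 23327 tested genes with a length, and Sox11 above 99.8%. In the DKO libraries Sox9, at 75.3 ± 9.22 RPKM, and Sox1, at 73.5 ± 6.14 RPKM, overlapped each other and both stood above Sox12, at 55.4 ± 1.53 RPKM, and Sox21, at 23.8 ± 1.54 RPKM, overlapped Sox3, at 23.3 ± 0.655 RPKM.

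**Figure D1:**
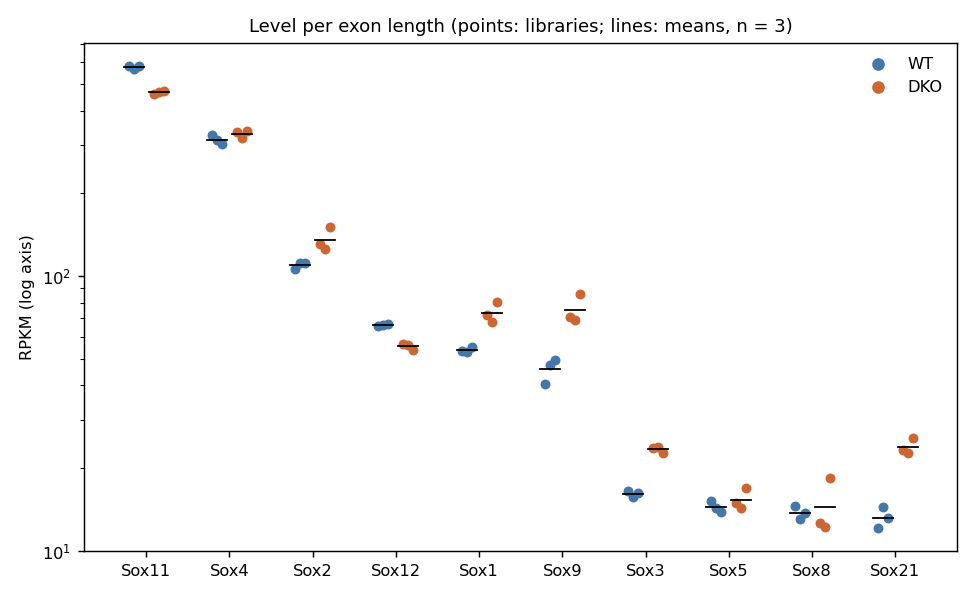
Level of each of the 10 Sox genes per exon length, in RPKM on a log axis, ordered by the WT mean; points are libraries (blue WT, orange DKO) and lines are means of 3. Sox11 and Sox4 lead in both genotypes, and Sox9 and Sox1 pass Sox12 in the DKO libraries.

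Of the 10 genes, 4 were higher in the DKO (Sox21, Sox9, Sox3 and Sox1), 2 were lower (Sox11 and Sox12) and 4 did not pass the test (Sox2, Sox4, Sox5 and Sox8), taking an adjusted p under 0.05 as the threshold. The p-values came from the quasi-likelihood test of edgeR and were adjusted by Benjamini-Hochberg over all tested genes. By the same test 2.68% of all tested genes were called, 1.34% in each direction. All DKO libraries lay above all WT libraries for 5 of the 10 genes, against 9.3% of all tested genes, and below them for 2, against 10.2%. The groups thus did not overlap for 7 of the 10, against 19.5% of all tested genes. The median log2 fold change (DKO minus WT) of the 10 was 0.20, and that of all tested genes was -0.0016. In bulk tissue a change in the number of cells of a type and a change in RNA per cell cannot be told apart.

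**Figure D2:**
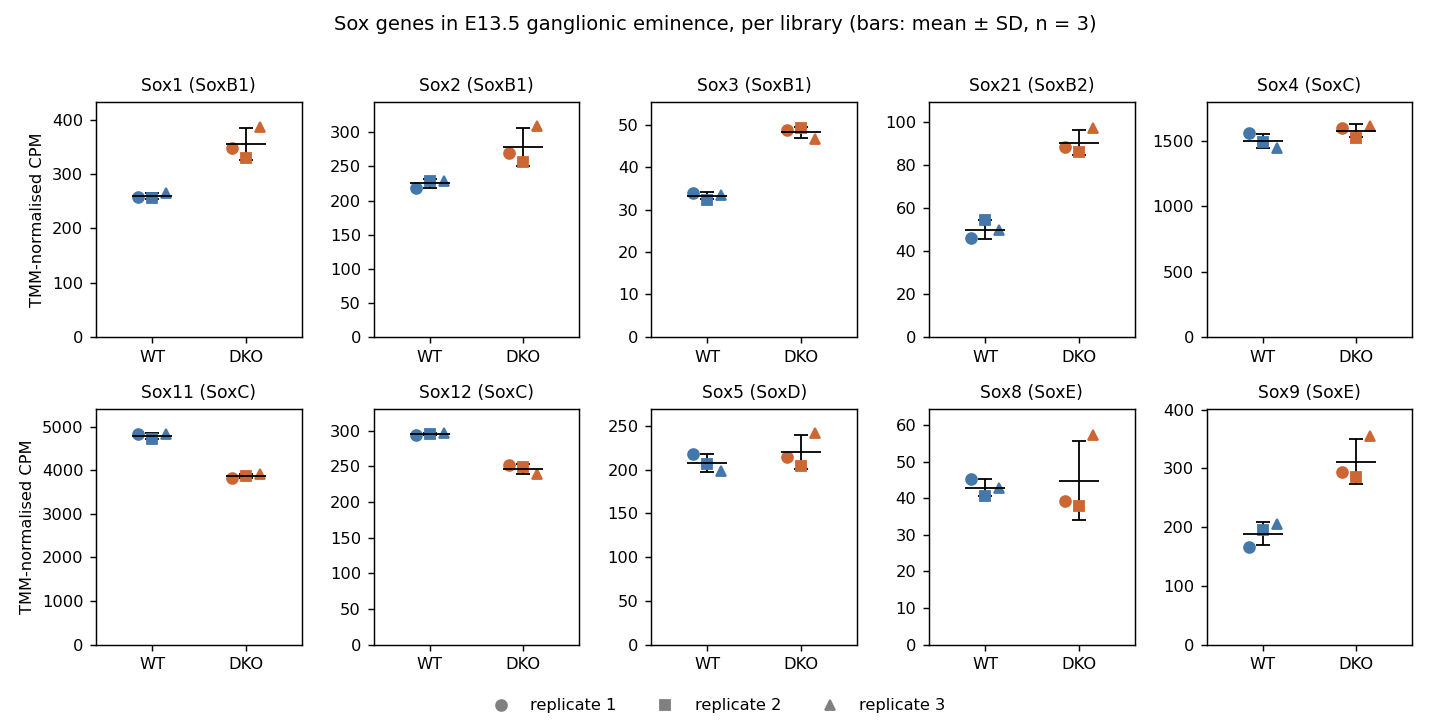
TMM-normalised CPM of each Sox gene in the 3 WT (blue) and 3 DKO (orange) libraries, with replicates 1, 2 and 3 as circles, squares and triangles and black bars for mean ± SD. The genotypes are separate for Sox1, Sox2, Sox3, Sox21, Sox9, Sox11 and Sox12 and overlap for Sox4, Sox5 and Sox8.

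Among the SoxB1 genes, Sox1 and Sox3 rose in the DKO and Sox2 did not pass the test. Sox1, a marker of neuroepithelial and ventral progenitors, was at 257.3, 255.4 and 265.3 CPM in WT replicates 1 to 3 and 348.1, 329.4 and 387.5 CPM in DKO replicates 1 to 3. Every DKO library was thus above every WT library, and DKO replicate 3 was the highest. This gave a log2 difference of 0.45 (SE 0.0668; edgeR adjusted p = 0.00927). The call was lost without WT replicate 1 or WT replicate 2, where edgeR's adjusted p was 0.0561 and 0.0525 with log2 fold changes of 0.45 and 0.44.

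Sox3, the X-linked member, was at 33.9, 32.4 and 33.5 CPM in the WT and 48.7, 49.2 and 46.7 CPM in the DKO libraries. The libraries of a genotype lay close together, and here DKO replicate 3 was the lowest of its group. On the log2 scale the DKO differed by 0.53 (SE 0.0544; edgeR adjusted p = 0.00141). WT replicates 2 and 3 and DKO replicate 1 held Xist at 1243 to 1520.5 CPM and almost no reads of 4 Y-linked genes (Ddx3y, Eif2s3y, Kdm5d and Uty), and the reverse held in the other libraries. With the level of those Y-linked genes as a covariate, the log2 fold change of Sox3 was 0.53 and its adjusted p in edgeR 0.00847.

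Sox2, the best-known progenitor factor of the family, was at 218.0, 229.2 and 228.6 CPM in the WT and 269.2, 257.1 and 309.2 CPM in the DKO libraries. The groups did not overlap, but the DKO libraries spread more widely, with a coefficient of variation of 9.79% against 2.79% in the WT. The log2 difference came to 0.31 (SE 0.0722; edgeR adjusted p = 0.0725). Without DKO replicate 3, its highest library, the log2 fold change was 0.23 and the adjusted p in edgeR was 0.0493. DESeq2 gave an adjusted p of 0.00567 for the same 6 libraries. The long non-coding gene Sox2ot, whose locus surrounds Sox2, was at 86.7 ± 2.97 and 94.0 ± 9.09 CPM (SD, n = 3), with overlapping groups and a log2 difference of 0.12 (SE 0.0710). Sox1ot, which GENCODE M21 classes as sense overlapping, shares no exon bases with Sox1. Whether its unspliced RNA adds reads to Sox1 was not tested. Sox1ot was at 193.1 ± 10.9 and 243.1 ± 22.2 CPM, with a log2 difference of 0.33 (SE 0.0748; edgeR adjusted p = 0.0603), or 0.0336 in edgeR with a replicate block.

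Sox21, the SoxB2 gene, showed the largest increase of the 10. It was at 46.0, 54.6 and 49.8 CPM in the WT and 88.4, 86.1 and 97.2 CPM in the DKO libraries, 1.81-fold higher on average. The lowest DKO library was well above the highest WT library. Its DKO minus WT difference on the log2 scale was 0.85 (SE 0.0748; edgeR adjusted p = 6.94e-04). Exons of Gm4675 overlap 18.8% of the Sox21 exon on the opposite strand, and the strand setting of the counting is not given in the sources used here. Gm4675 itself was counted at 1.82 and 3.20 CPM on average, far below Sox21, with a log2 difference of 0.81 (SE 0.144). The per-length ratio of Sox2 to Sox21 was 8.76, 7.76 and 8.48 in the WT and 5.62, 5.51 and 5.87 in the DKO libraries and was lower in each DKO library than in any WT library. That ratio was not tested.

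Of the SoxC genes, which mark cells entering neuronal differentiation, Sox11 and Sox12 were lower in the DKO and Sox4 was not called. The difference between their changes was not tested. Sox11, the most abundant of the 10, was at 4833, 4717 and 4836 CPM in the WT and 3825, 3879 and 3923 CPM in the DKO libraries. The groups were far apart relative to their spread, with coefficients of variation of 1.42% and 1.26%. This gave a log2 difference of -0.31 (SE 0.0622; edgeR adjusted p = 0.0399).

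Sox12 was at 293.6, 295.0 and 297.2 CPM in the WT and 251.5, 249.4 and 238.8 CPM in the DKO libraries, again with no overlap. On the log2 scale the DKO differed by -0.26 (SE 0.0472; edgeR adjusted p = 0.0247). Both calls were close to the threshold in edgeR. For the same 6 libraries DESeq2 gave adjusted p of 7.85e-07 for Sox11 and 4.83e-04 for Sox12, and limma-voom gave 0.00227 and 0.0163. DESeq2 also called more of all tested genes, 1162 against 634 in edgeR. With DKO replicate 3 left out the calls held, at edgeR adjusted p of 0.0410 for Sox11 and 0.0325 for Sox12. Without any 1 of the other 5 libraries they were lost, with edgeR adjusted p of 0.0686 to 0.195 for Sox11 and 0.0684 to 0.116 for Sox12. In the model with a replicate block, Sox11 had a log2 fold change of -0.31 and an edgeR adjusted p of 0.110. With total count scaling both genes stayed lower but missed the threshold, at edgeR adjusted p of 0.0505 and 0.0519, and with the Y-linked covariate these were 0.0644 and 0.0977.

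Sox4 was at 1559, 1492 and 1446 CPM in the WT and 1602, 1520 and 1612 CPM in the DKO libraries, so the genotypes overlapped. The log2 difference came to 0.07 (SE 0.0615; edgeR adjusted p = 0.709). Gm26735, a gene model of GENCODE M21 on the opposite strand, covers 54.6% of the Sox4 exon, so the count of Sox4 is uncertain if strand was ignored. The per-length ratio of Sox4 to Sox11 was 0.559, 0.548 and 0.518 in the WT and 0.726, 0.679 and 0.712 in the DKO libraries, without overlap. The ratio of Sox12 to Sox11 overlapped, at 0.115 ± 0.00169 and 0.119 ± 0.00468 (SD, n = 3). The sum of the cortical excitatory markers was lower in each DKO library than in each WT library, as was that of the early neuronal genes, at 9238 to 9896 CPM in the WT and 7691 to 8864 CPM in the DKO. None of the 5 excitatory markers was at 0, and their part in the decrease of Sox11 and Sox12 was not tested.

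Sox5, which represents the SoxD subgroup and acts in deep-layer cortical neurons and in precursors, was at 218.1, 206.2 and 198.4 CPM in the WT and 214.3, 204.6 and 242.5 CPM in the DKO libraries. DKO replicates 1 and 2 lay in the WT range and DKO replicate 3 above it. Its DKO minus WT difference on the log2 scale was 0.09 (SE 0.0711; edgeR adjusted p = 0.702). The opposite-strand gene Sox5os1 overlaps 9.25% of Sox5 exon length, and was counted at 0.271 and 0.409 CPM on average.

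Of the SoxE pair, Sox9 rose in the DKO and Sox8 did not pass the test. Sox9, a radial glial factor needed for the switch to gliogenesis, was at 166.9, 195.2 and 204.6 CPM in the WT and 293.8, 285.3 and 355.2 CPM in the DKO libraries. Every DKO library was above every WT library although both groups spread widely, with coefficients of variation of 10.4% and 12.2%. The mean was 1.65-fold higher, a log2 difference of 0.72 (SE 0.102; edgeR adjusted p = 0.00773). No exon of another GENCODE M21 gene overlaps the exons of Sox9, Sox2, Sox3, Sox11 or Sox12, and the small RNA gene Gm25239 lies within that of Sox1. Overlap was counted between exons only. Unspliced RNA of a surrounding gene, such as Sox2ot around Sox2, was therefore not covered.

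Sox8 was at 45.2, 40.6 and 42.8 CPM in the WT and 39.3, 37.9 and 57.3 CPM in the DKO libraries. DKO replicates 1 and 2 were below every WT library and DKO replicate 3 was above, which gave the largest spread of the 10 genes within a genotype, a coefficient of variation of 24.2%. The log2 fold change was 0.07 (SE 0.145; adjusted p of 0.911 in edgeR), and -0.14 without DKO replicate 3. The opposite-strand gene model 2810468N07Rik overlaps 10.6% of its exon length. The per-length ratio of Sox8 to Sox9 was 0.359, 0.276 and 0.277 in the WT and 0.178, 0.176 and 0.214 in the DKO libraries.

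Summed per length, the 3 SoxC genes made up 77.7% to 79.1% of the RPKM of the 10 genes in the WT and 68.3% to 71.5% in the DKO libraries. The 3 SoxB1 genes made up 14.3% to 14.9% and 18.5% to 20.1%, and the SoxE pair 4.46% to 5.17% and 6.91% to 8.27%. Sox21 made up 0.984% to 1.18% and 1.93% to 2.03%, and Sox5 1.13% to 1.23% and 1.21% to 1.34%. The shares sum to 100% in each library, so they are a description of the mixture and are not independent of each other. In RPKM the SoxB1 sum was 175.6 to 182.2 in the WT and 217.0 to 253.1 in the DKO libraries, and the SoxC sum was 945.0 to 972.6 and 839.7 to 861.8.

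**Figure D3:**
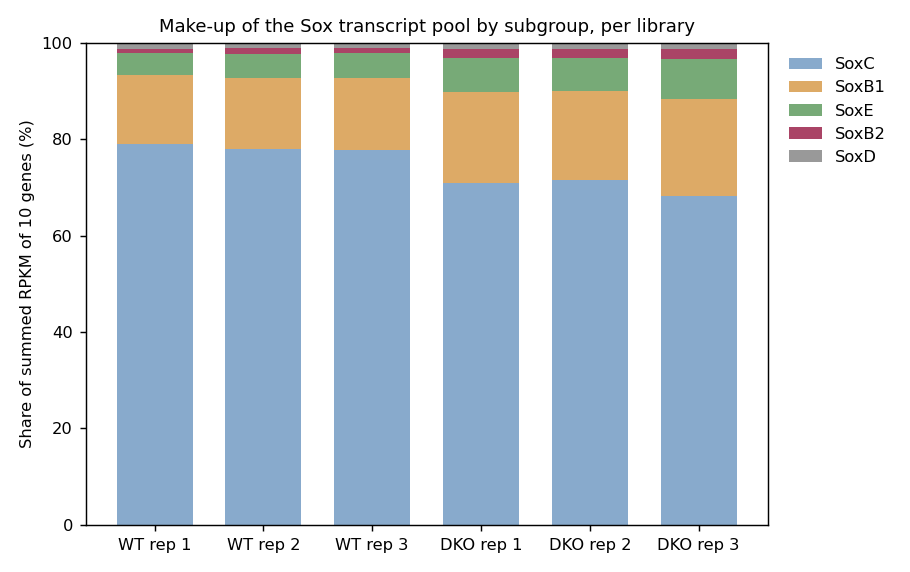
Share of each Sox subgroup in the summed RPKM of the 10 genes, in percent, with a stacked bar for each library. The SoxC share is 77.7% to 79.1% in the WT bars and 68.3% to 71.5% in the DKO bars.

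The 9 other Sox genes examined were all tested, and 2 of them were called higher and none lower. Of all tested genes 1.34% were called in each direction. Sox10, a SoxE factor of the oligodendrocyte lineage, was at 1.40, 1.38 and 1.36 CPM in the WT and 6.69, 5.01 and 7.31 CPM in the DKO libraries. Its log2 fold change of 2.20 (SE 0.167) had an adjusted p of 2.87e-04 in edgeR. Among SoxE genes the log2 fold changes were thus 0.07, 0.72 and 2.20 for Sox8, Sox9 and Sox10, and the differences between them were not tested. Sox13, a SoxD gene, was at 15.2, 14.8 and 15.6 CPM in the WT and 20.1, 20.8 and 19.2 CPM in the DKO libraries, a log2 difference of 0.40 (SE 0.0720; edgeR adjusted p = 0.0241). The Sox13 call was lost with the replicate block, at an edgeR adjusted p of 0.0550, with the Y-linked covariate, at 0.0732, and without any 1 library except DKO replicate 3, at up to 0.117. Sox6, the remaining SoxD gene, was at 222.8 ± 8.31 and 217.1 ± 12.8 CPM (SD, n = 3), with overlapping groups and a log2 fold change of -0.04 (SE 0.0579).

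Sox14, a SoxB2 gene like Sox21, had 17, 26 and 10 reads in the WT and 55, 47 and 58 reads in the DKO libraries, and did not pass the test, at a log2 difference of 1.55 (SE 0.332; edgeR adjusted p = 0.0503). It was called in edgeR without a filter on low counts, in DESeq2 and in limma-voom, at adjusted p of 0.0153, 0.00523 and 0.0433. Sox7, Sox17 and Sox18, which act in endothelium, were between 2.34 and 5.57 CPM on average, had log2 fold changes of 0.16, -0.22 and 0.11, and were not called. Sox15 and Sox30 were under 1 CPM on average in both genotypes and were not called.

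**Figure D4:**
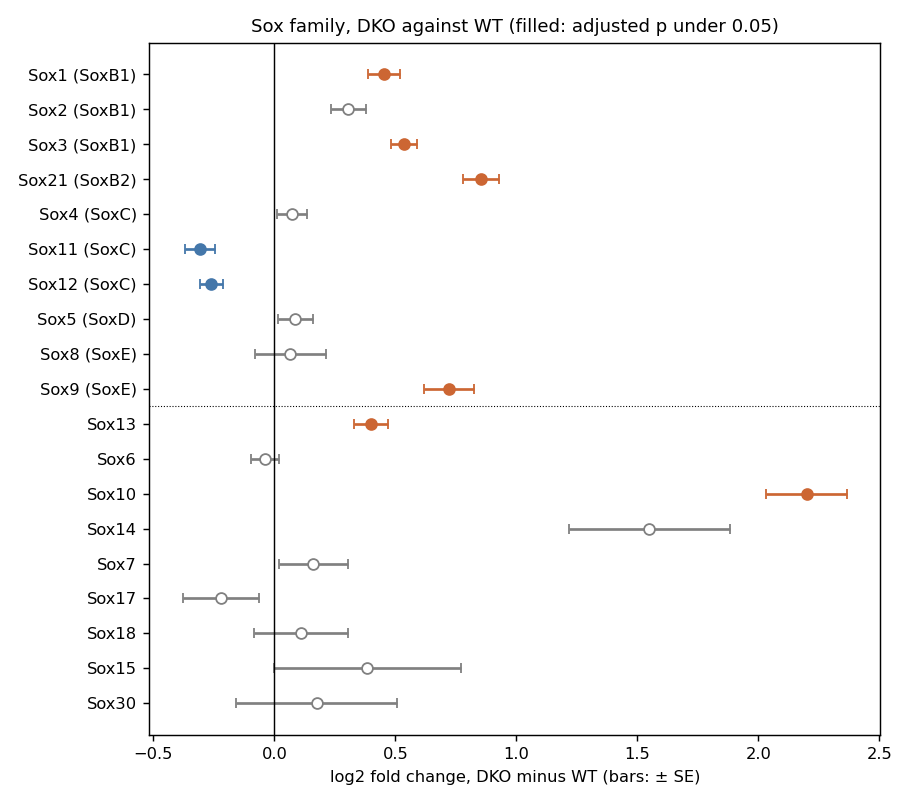
Log2 fold change (DKO minus WT) with its SE for the 10 Sox genes (above the dotted line) and 9 other Sox genes; filled points have an adjusted p under 0.05, orange higher and blue lower in the DKO. Sox10 lies at 2.20, Sox21 at 0.85 and Sox9 at 0.72, while Sox11 and Sox12 lie below 0.

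Genes that work with or beside each subgroup were read from lists of known partners, targets and stage markers. The lists were chosen with earlier results of these data known. Of 15 SoxB1 partner and progenitor genes, 3 were called higher and 2 lower in the DKO, against 1.34% of all tested genes in each direction. The median log2 fold change of the 15 was 0.20, against -0.0016 for all tested genes. The POU factor genes Pou3f4 and Pou3f1, whose products bind DNA beside SoxB1 proteins, fell with log2 fold changes of -0.88 (SE 0.123) and -0.73 (SE 0.0977). Pou3f4 went from 73.1 ± 2.66 to 39.8 ± 7.96 CPM (SD, n = 3). Pou3f2 and Pou3f3 did not pass the test, with log2 fold changes of 0.23 and 0.20. The Notch effector Hes5, the receptor gene Notch1 and the Hedgehog effector Gli3 rose, Hes5 by 0.68 (SE 0.0849), Notch1 by 0.59 (SE 0.0828) and Gli3 by 0.31 (SE 0.0658) on the log2 scale. The Gli3 call was lost without any 1 of the 6 libraries, with edgeR adjusted p of 0.0547 to 0.169, and with the Y-linked covariate, at 0.119. The radial glial genes Nes, Fabp7 and Vim were not called, with log2 fold changes of 0.27, 0.26 and 0.25, close to that of Sox2. Other genes of the list differed from these, and of the 15 log2 fold changes 11 were positive and 4 negative. Over the 15 alternatives given below, Cdh2 ranged from -0.15 to -0.10, Pax6 from -0.10 to 0.04 and Slc1a3 from 0.04 to 0.23. The Notch effector gene Hes1 ranged from 0.11 to 0.19 over the same alternatives. Cdh2, Pax6, Slc1a3 and Hes1 were called in none of them. In GENCODE M21 opposite-strand genes overlap exons of Pou3f1, Hes5, Notch1, Gli3, Pdgfra, Gpr17, Olig1, Zbtb20, Dll1, Sorl1 and Mcat. Such genes also overlap exons of Tead2, Nfia, Nfix, Sox15, Sox17, Dlx1 and Eomes. The largest share among all these is 31.8% of exon length (Hes5). Same-strand genes overlap Elavl3, Stmn1, Lhx6, Pdgfra, Zbtb20 and Sox2ot. Counts of all these genes are therefore uncertain.

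Of 16 early neuronal genes, among them genes activated by SoxC factors, 1 was called lower and none higher. Of all tested genes 1.34% were called in each direction. Elavl3, an RNA-binding protein gene of young neurons, fell from 579.6 to 483.6 CPM on average, a log2 difference of -0.26 (SE 0.0519; edgeR adjusted p = 0.0370). Its call was lost with the replicate block, at an edgeR adjusted p of 0.0682, with the Y-linked covariate, at 0.102, and without any 1 library except DKO replicate 3, at up to 0.175. Values for the tubulin gene Tubb3, a known SoxC target, were 1185 and 939.4 CPM, with a log2 difference of -0.33 (SE 0.0722; edgeR adjusted p = 0.0521). The microtubule genes Dcx and Stmn1 had log2 fold changes of -0.37 and -0.33 with no overlap between genotypes, and were not called. In all, 13 of the 16 had negative log2 fold changes and the median was -0.16, against a median of -0.0016 for all tested genes. Tead2, also known as a direct target of Sox4 and Sox11, was not called, with a log2 difference of 0.26 (SE 0.126).

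Of 15 glial fate genes, all tested, 7 were called higher and none lower, against 1.34% of all tested genes in each direction. Their median log2 fold change was 0.22, against -0.0016 for all tested genes. An unadjusted p under 0.05 in edgeR was found for 7 of the 15, against 13.3% of all tested genes. None was called lower in DESeq2 or limma-voom. Pdgfra, Bcan, Gpr17 and Olig1, which belong to the oligodendrocyte precursor programme that Sox9 and Sox10 serve, had log2 fold changes of 1.89, 1.76, 1.28 and 1.13. Bcan, a proteoglycan gene, went from 6.27 ± 0.775 to 21.2 ± 2.81 CPM (SD, n = 3). The other 3 were Olig2, Zbtb20 and Ptprz1, at 0.80, 0.71 and 0.56. The Olig2 call was lost without WT replicate 1 or WT replicate 2, at edgeR adjusted p of 0.0523 and 0.0512. The nuclear factor gene Nfia, known to act with Sox9 at the start of gliogenesis, and its relatives Nfib and Nfix were not called, with log2 fold changes of 0.15, -0.09 and 0.13. Cspg4, another of the 15, was not called here or in any alternative given below, where its log2 fold changes were 0.16 to 0.29.

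Of 12 dividing cell genes none was called in edgeR, DESeq2 or limma-voom, 1 had an unadjusted p under 0.05 in edgeR (13.3% of all tested genes did), and the median log2 fold change was 0.11. Their summed level overlapped between genotypes, at 2989 to 3340 CPM in the WT and 3050 to 4040 CPM in the DKO libraries. DKO replicate 3, which had the highest sum, was also the highest library for Sox1, Sox2, Sox4, Sox5, Sox8, Sox9 and Sox21, and the part of dividing cells in those values was not tested. Without that library the log2 fold changes were 0.39 for Sox1, 0.62 for Sox9 and 0.81 for Sox21, and these 3 were still called in edgeR.

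**Figure D5:**
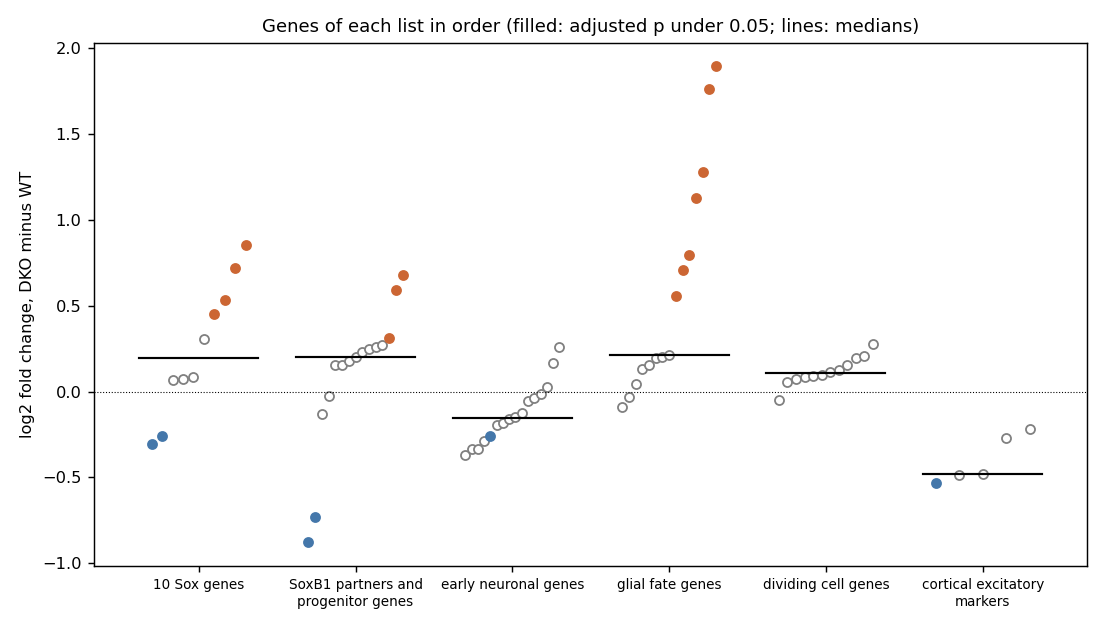
Log2 fold change (DKO minus WT) of the genes of each list, in rising order, with the list median as a line; filled points have an adjusted p under 0.05, orange higher and blue lower in the DKO. The glial fate list reaches 1.89, 13 of 16 early neuronal genes lie below 0, and all 5 cortical excitatory markers lie below 0.

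Profiles over the 6 libraries were compared by the root mean square difference of log2 CPM after centring each gene on its own mean, among the 16487 genes that averaged 1 CPM or more. The 3 genes nearest to Sox21 were Btg2, an anti-proliferative gene of neurogenic divisions, Hes6, a proneural Hes factor, and the endothelin receptor gene Ednrb, at distances of 0.0707, 0.0721 and 0.0844. Nearest to Sox9 were Myo10, the Notch ligand gene Dll1 and Sytl5, at 0.0407, 0.0525 and 0.0582. Nearest to Sox11 were the sorting receptor gene Sorl1, the semaphorin gene Sema6c and the surface glycoprotein gene Cd24a, at 0.0194, 0.0200 and 0.0212. For Sox2 the nearest were Smox, Gm36401 and Gpx8, and for Sox5 they were Rgl2, 9930104L06Rik and Mcat, none of which was called. With 6 libraries in 2 genotypes, many genes lie close to any profile, so these names are a description.

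Promoter sequence was read for the called members to show what lies before their start sites. RefSeq (GRCm38.p6) had an entry for 8 of the 10 genes, not for Sox3 or Sox9. The 250 bases before the start are given 5′ to 3′ on the gene's strand for Sox21, Sox1 and Sox11, with capitals at the homeodomain core TAAT or its reverse complement ATTA.
Sox21, chr14:118237031-118237280, minus strand: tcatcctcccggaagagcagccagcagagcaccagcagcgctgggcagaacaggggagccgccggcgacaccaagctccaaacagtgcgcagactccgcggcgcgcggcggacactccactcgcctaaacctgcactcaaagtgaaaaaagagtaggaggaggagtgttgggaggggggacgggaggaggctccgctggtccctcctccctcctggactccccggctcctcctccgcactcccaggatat
Sox1, chr8:12395269-12395518, plus strand: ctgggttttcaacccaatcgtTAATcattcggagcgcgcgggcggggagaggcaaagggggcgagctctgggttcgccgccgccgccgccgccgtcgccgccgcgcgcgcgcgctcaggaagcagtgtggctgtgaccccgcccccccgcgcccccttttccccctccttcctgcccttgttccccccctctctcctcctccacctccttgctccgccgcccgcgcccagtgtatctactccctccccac
Sox11, chr12:27342719-27342968, minus strand: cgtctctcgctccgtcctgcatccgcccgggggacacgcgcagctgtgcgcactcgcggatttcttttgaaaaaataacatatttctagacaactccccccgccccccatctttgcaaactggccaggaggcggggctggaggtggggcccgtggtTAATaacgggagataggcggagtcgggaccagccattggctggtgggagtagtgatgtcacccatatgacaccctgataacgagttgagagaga
Sox1 and Sox11 each held 1 core match, 229 and 94 bases before the start, and Sox21 and Sox12 held none. Among the 4 genes that were not called, Sox4 held 2 matches and Sox2, Sox5 and Sox8 held none. Of 32851 RefSeq promoter windows of the same length, 54.9% held this core on either strand. The palindromic site TAATTA, the form that Dlx proteins are known to bind, was in none of the 8 windows and in 4.84% of all windows. The Sox site ACAAAG or its reverse complement CTTTGT was in 16.5% of windows and, among the 8, in that of Sox2. The GC content of the windows was 65.2% for Sox21, 71.2% for Sox1, 74.4% for Sox12 and 58.0% for Sox11, and the median over all windows was 52.4%. These letters describe the windows, and no binding was measured here.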

How the data were processed

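The authors deposited raw read counts per gene in whole numbers, made with featureCounts on genome build GRCm39 per the submitters' processing notes. The aligner, the annotation release and the strand and multi-mapping settings are not given in the sources used here. Per the labels' protocols, ribosomal RNA was depleted and a stranded total RNA kit was used, so unspliced RNA contributes reads.

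Groups came from the sample titles. Counts of all 6 libraries were fitted in edgeR 4.0.16 (R 4.3.3): filterByExpr with a minimum count of 10 and a minimum total of 15, TMM scaling, and the quasi-likelihood test on genotype with Benjamini-Hochberg adjustment over all 23628 tested genes. SE is the log2 fold change divided by the square root of F. A count of 3 corresponds to 0.0432 to 0.0520 CPM, which covers counting error only. Exon lengths and overlaps came from GENCODE M21 (GRCm38), whose coordinates were not joined to the counts. Alternatives used limma 3.58.1 (voom) and DESeq2 1.42.0. The tests were tested on simulated counts.

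Same-numbered libraries correlated in their deviations from group means at -0.0694 to 0.00182 over all tested genes and 0.104 to 0.166 over the 16482 of them that averaged 1 CPM or more, without Xist and Y-linked genes, so pairing was not settled. A replicate block is given where it changes a call.

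Members and lists were chosen with earlier results of these data known. Named genes were the 10 members, Dlx1 and Dlx2, the other Sox genes, called genes of each list (at most 4 with the largest changes, plus any counted in a sentence) and the 3 nearest profiles for Sox2, Sox21, Sox11, Sox5 and Sox9. Neighbouring transcripts and uncalled list genes were named after their values were seen.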

Additional observations from a re-analysis of the deposited data

How the results depend on the processing

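Over 15 alternatives, Sox21, Sox9 and Sox3 remained higher and called in each, whereas Sox4, Sox5 and Sox8 were called in none. Total count scaling gave log2 fold changes of 0.33 for Sox2, now called, and -0.28 for Sox11 and -0.23 for Sox12, no longer called (edgeR adjusted p of 0.0505 and 0.0519), so 0 of the 10 were lower, and 7 had an unadjusted p under 0.05 in edgeR with TMM, against 13.3% of all tested genes. Sox2 was also called without a filter (0.32) and in DESeq2 (0.31). With the Y-linked covariate Sox11 (-0.31) and Sox12 (-0.25) were not called, which left 0 lower. At an adjusted p under 0.01 in edgeR, Sox11 (-0.31) and Sox12 (-0.26) were likewise not called, leaving 0 lower. With the replicate block Sox11 (-0.31) was lost, leaving 1 member lower, and no other member's call changed. Leaving out 1 library gave 0 to 2 members lower, with log2 fold changes of 0.39 to 0.50 for Sox1, 0.23 to 0.36 for Sox2, -0.32 to -0.30 for Sox11 and -0.28 to -0.23 for Sox12.

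Over all tested genes, DESeq2 called 1162 (592 higher, 570 lower), the Y-linked covariate 358 (171 and 187), the 0.01 threshold 275 (126 and 149), and the 6 fits without a library 309 to 749 (143 to 391 higher, 160 to 358 lower), against 634. Of the other Sox genes, 1 was called with the replicate block, the Y-linked covariate or the 0.01 threshold, 1 to 2 without a library, and 3 without a filter, in DESeq2 or in limma-voom, where Sox14 was also called. Early neuronal genes called lower numbered 4 without a filter, 4 in DESeq2, 3 in limma-voom, 0 with the block, the covariate or the 0.01 threshold, and 0 to 1 without a library. Calls over all tested genes moved as well, with 126 to 592 higher and 149 to 570 lower over the 15 alternatives. In edgeR with TMM on all 6 libraries, at the 0.05 threshold, these calls numbered 317 in each direction. Fits without a library had fewer samples; the cause of the other changes was not tested. The median log2 fold change of all genes was 0.03 with total count scaling.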
